A study of Mus musculus with 24 samples.

Results

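The 8 genes described here encode the IL-6 receptor chains and regulators of the type 17 and follicular helper T cell programs: Il6ra, Il6st, Stat3, Batf, Irf4, Maf, Rora and Ahr. They were listed by name, with earlier results of these data known, and each was found once among the 55401 genes of the count table. RNA was taken from sorted splenic CD4+ or CD8+ T cells of C57BL/6 mice aged 12 weeks, after 2 days of culture with antibodies to CD3 and CD28. Pou2af1, a transcriptional coactivator that works with octamer-binding factors, was deleted by a Cre transgene named CD4.Cre. Cd4-driven Cre acts in thymocytes before the CD4 and CD8 lineages part, so it reaches both cell types. The control (WT) group had CD4.Cre- with Pou2af1 fl/fl, so it held floxed alleles without Cre and is titled Pou2af1+/+. The heterozygous group (Het) had CD4.Cre+ with Pou2af1 fl/+. The knockout group (KO) had CD4.Cre+ with Pou2af1 fl/fl. Cre was therefore present in both test groups and absent from the controls, and the effects of Cre and of the deleted allele cannot be told apart against WT. Each of the 6 groups of cell type and genotype held 4 libraries. The labels do not say whether the replicate numbers mark separate animals, so p-values measure the spread between these libraries, which may be technical in part.

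IL-6 binds a ligand-specific receptor chain encoded by Il6ra and then recruits gp130, the signal-transducing chain encoded by Il6st that several related cytokines share. gp130 activates Janus kinases, which phosphorylate STAT3. In CD4 T cells IL-6 given with TGF-beta is known to start the type 17 program, in which BATF and IRF4 open chromatin and the nuclear receptor RORα, with c-MAF and the ligand-activated factor AHR, shape the effector genes. BATF, IRF4, c-MAF and STAT3 also act in follicular helper cells. No IL-6 or TGF-beta was named in the culture described by the labels.

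Library depth, the sum of counts over all genes, was 11.9 to 21.8 megacounts, with a median of 14.0 megacounts. Levels below are CPM, counts scaled to the library total, after TMM scaling, and a floor of 3 counts corresponded to 0.138 to 0.251 CPM. Pou2af1 averaged 38.4 ± 10.95 CPM in CD4 WT, 20.2 ± 4.29 in CD4 Het and 2.20 ± 1.11 in CD4 KO libraries (SD, n = 4), and 27.7 ± 6.18, 15.5 ± 1.40 and 1.71 ± 0.751 CPM in the CD8 groups in the same order. The sorted cells carried their lineage markers: Cd4 and its lineage partners Zbtb7b and Cd40lg summed to 655 to 787 CPM in CD4 and 4.77 to 18.2 CPM in CD8 libraries. The CD8 lineage list (Cd8a, Cd8b1, Runx3) summed to 1033 to 1165 CPM in CD8 and 58.6 to 80.5 CPM in CD4 libraries. Of the myeloid list of 7 genes, S100a8 was at 0 in every library and the summed level was at most 4.26 CPM. The B cell list of 7 genes summed to 136 to 207 CPM in CD4 and 358 to 428 CPM in CD8 libraries, most of it Ighm, and its part in the differences between cell types was not tested. By Xist and Ddx3y, 1 of 4 libraries in each WT and KO group and 2 of 4 in each Het group came from females, and the part of sex was not tested. Each group thus held libraries of more than 1 animal.

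Calls among the members lay between cell types and not between genotypes. Il6ra, Irf4, Maf and Rora were lower in CD8 than in CD4 cells in each of the 3 genotypes, and Il6st, Stat3, Batf and Ahr did not pass the test in any of them. Calls here and below are edgeR quasi-likelihood tests whose p, adjusted by Benjamini-Hochberg across every tested gene, was under 0.05. In WT, 4 of 8 members were called lower and 0 higher, against a background of 16.6% of the 13288 tested genes called lower and 31.2% called in either direction. In Het, 4 of 8 were called lower, where 17.8% of all genes were called lower and 34.9% in either direction. In KO, 4 of 8 were called lower, where 13.0% of all genes were called lower and 24.1% in either direction. The same 4 members were lower in all 3 genotypes, as were 9.60% of all tested genes. Maf is 1 of the 4 and entered the test only through its CD4 libraries, and without it the count was 3 of 7 in each genotype. With 8 members these shares are a description of the genes chosen and not a test of the set. The ranges of the 4 CD8 and the 4 CD4 libraries did not overlap for these same 4 members in each genotype, and for 3 of 7 without Maf. Of all genes 31.3% in WT, 38.3% in Het and 20.9% in KO had ranges that did not overlap. The median log2 change over the 8 members was -0.51 in WT, -0.49 in Het and -0.48 in KO, beside -0.02, 0.01 and -0.003 over all tested genes.

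**Figure D1:**
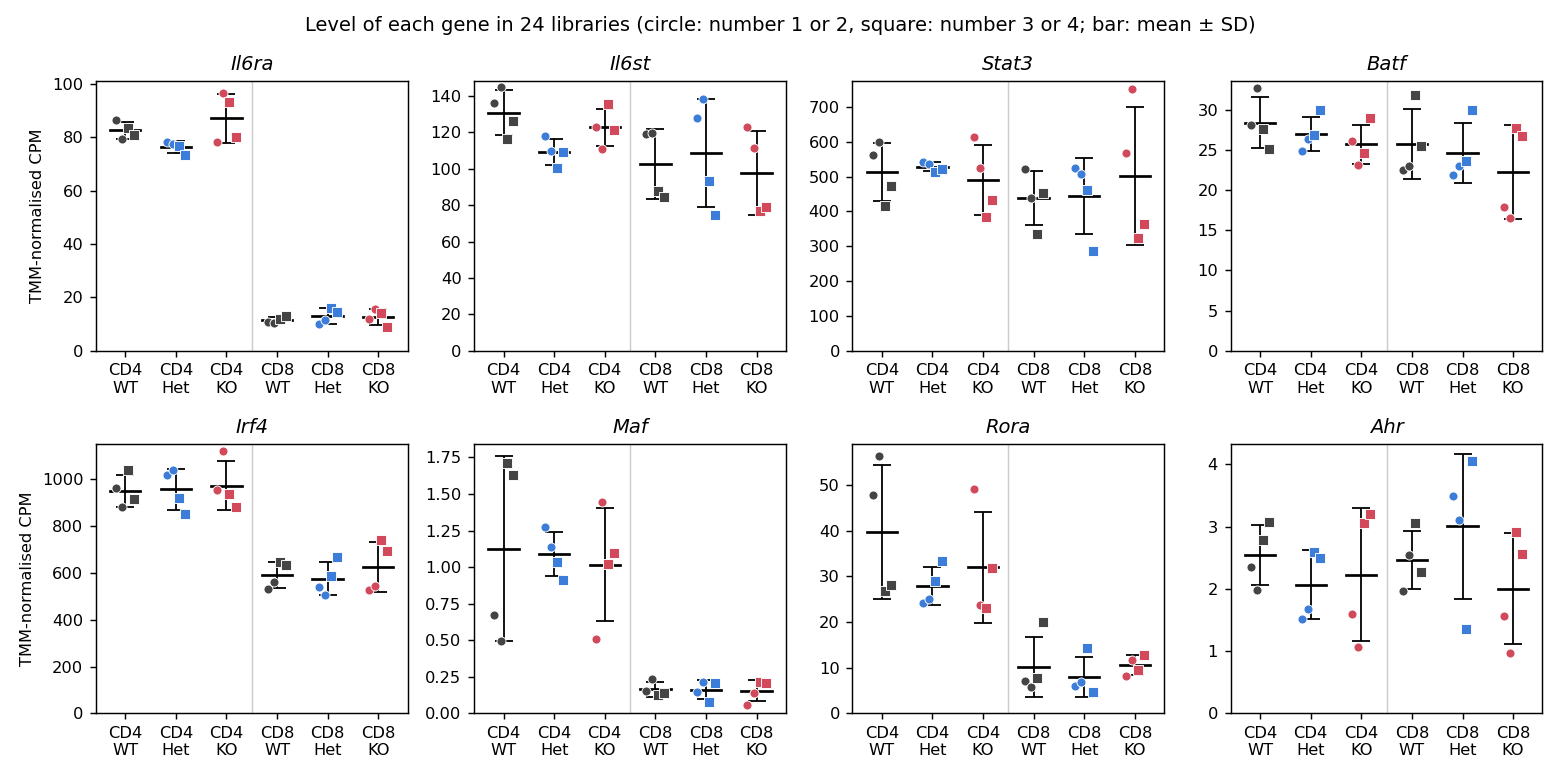
Level of each of the 8 genes in TMM-normalised CPM (y axis, linear from 0) in the 6 groups (x axis). Each point is 1 library, circles are libraries numbered 1 or 2 and squares those numbered 3 or 4, the horizontal bar is the mean of 4 and the error bar is the SD. Il6ra, Irf4, Maf and Rora were lower in every one of the 12 CD8 libraries than in any of the 12 CD4 libraries, and the other 4 genes overlapped between cell types.

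Ordered by level per kilobase of annotated exon, which allows genes of different length to be compared, the means over all 24 libraries were 159 CPM per kb for Irf4, 51.0 for Stat3, 18.2 for Batf, 10.1 for Il6st, 5.46 for Il6ra, 1.63 for Rora, 0.387 for Ahr and 0.0751 for Maf. Irf4, Stat3 and Batf were thus the abundant members, and Rora, Ahr and Maf the scarce ones. These means pool both cell types. In CD4 WT libraries alone Rora was 3.04, Ahr 0.413 and Maf 0.137 CPM per kb. Fewer cells of a type and less RNA per cell cannot be told apart in these bulk libraries, and for Maf and Rora the levels are those of the whole culture.

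The bases just before the transcription start of the 3 called members with an annotated window are printed here because these genes were lower together in CD8 cells; that of Stat3, which was not, is given beside them. The windows are the 250 bases before the RefSeq start on GRCm38.p6, written 5′ to 3′ on the strand of the gene, and windows were held for 6 of the 8 members (Il6ra, Il6st, Stat3, Batf, Irf4 and Rora). Capitals mark matches to any of 4 motifs searched on both strands: the octamer ATGCAAAT, the STAT motif TTCNNNGAA, the dioxin response core GCGTG that AHR with ARNT binds, and the AP-1 motif TGANTCA.
Il6ra, chr3:89913197-89913446, minus strand: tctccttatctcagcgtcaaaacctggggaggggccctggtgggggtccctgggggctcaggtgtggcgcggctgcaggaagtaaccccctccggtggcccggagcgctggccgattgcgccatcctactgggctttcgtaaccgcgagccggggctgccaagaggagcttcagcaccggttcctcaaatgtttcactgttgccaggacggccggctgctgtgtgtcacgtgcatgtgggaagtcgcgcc
Rora, chr9:68653536-68653785, plus strand: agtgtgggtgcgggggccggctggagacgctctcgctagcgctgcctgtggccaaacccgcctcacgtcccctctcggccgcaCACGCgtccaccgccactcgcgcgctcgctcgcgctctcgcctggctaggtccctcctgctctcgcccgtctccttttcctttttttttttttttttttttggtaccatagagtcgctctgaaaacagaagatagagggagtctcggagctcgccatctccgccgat
Irf4, chr13:30748983-30749232, plus strand: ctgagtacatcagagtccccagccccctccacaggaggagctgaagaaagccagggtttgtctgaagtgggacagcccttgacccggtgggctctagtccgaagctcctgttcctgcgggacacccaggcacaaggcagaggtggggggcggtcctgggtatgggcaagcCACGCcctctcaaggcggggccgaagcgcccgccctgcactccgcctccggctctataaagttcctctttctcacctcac
Stat3, chr11:100939541-100939790, minus strand: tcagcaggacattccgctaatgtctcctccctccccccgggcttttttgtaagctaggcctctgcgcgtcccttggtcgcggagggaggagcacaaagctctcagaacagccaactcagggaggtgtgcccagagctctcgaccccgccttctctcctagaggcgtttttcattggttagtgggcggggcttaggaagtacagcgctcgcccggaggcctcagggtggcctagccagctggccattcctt
The only matches were 1 GCGTG core in Irf4, 80 bases before the start, and 1 in Rora, 167 bases before the start, both on the minus strand of the printed window and so read as CACGC. Among 32851 RefSeq windows of the same 250 bases, 28.2% held that core, 1.6% the octamer, 7.02% the STAT motif and 6.75% the AP-1 motif. The letters searched were not found in the windows of Il6ra, Stat3, Il6st and Batf.

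Il6ra (chr3:89864059-89913196, minus strand) encodes the chain that binds IL-6 itself. In WT its level was 86.6, 79.1, 83.6 and 80.8 CPM in the CD4 libraries numbered 1 to 4. It was 10.7, 10.5, 11.9 and 13.0 CPM in the CD8 libraries. Every CD8 library was far below every CD4 library, with means of 11.5 ± 1.18 against 82.5 ± 3.26 CPM (SD, n = 4). The log2 change was -2.84 (SE 0.14, adjusted p = 1.66e-12), a level 7.14-fold lower in CD8 cells. Het CD4 libraries held 78.2, 77.2, 76.7 and 73.2 CPM, and Het CD8 libraries 9.82, 11.6, 16.2 and 14.4 CPM. KO CD4 libraries held 78.3, 96.6, 93.1 and 80.0 CPM, and KO CD8 libraries 11.9, 15.6, 14.1 and 8.84 CPM. The gap between cell types was of like size in both, 5.87-fold in Het (log2 -2.55, adjusted p = 8.52e-12) and 6.90-fold in KO (log2 -2.79, adjusted p = 2.49e-12). Only 121 of the 13288 tested genes had a lower log2 value than Il6ra in WT. The antisense gene Gm42809 overlaps Il6ra but held at most 23 counts in a library.

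Il6st (chr13:112464070-112510086, plus strand) encodes gp130. Its CD4 WT libraries held 136, 145, 117 and 126 CPM. Its CD8 WT libraries held 119, 120, 87.8 and 84.8 CPM. The CD8 libraries numbered 3 and 4 were below all CD4 WT libraries and those numbered 1 and 2 lay among them, so the groups overlapped. The log2 change was -0.35 in WT (adjusted p = 0.118), -0.01 in Het (adjusted p = 0.963) and -0.33 in KO (adjusted p = 0.171). When replicate number was fitted as a block, the call changed in WT (log2 -0.36, adjusted p = 0.0265) and KO (log2 -0.36, adjusted p = 0.0329), and not with each genotype's numbers as separate blocks. It also changed in WT and KO with numbers 1 and 2 against 3 and 4 as a covariate. Among libraries numbered 3 and 4 alone Il6st was lower in CD8 cells in WT (log2 -0.50, adjusted p = 0.00914), Het (-0.33, 0.0435) and KO (-0.71, 0.0011). Among those numbered 1 and 2 alone it was lower in WT (log2 -0.24, adjusted p = 0.0386) but higher in Het (0.22, 0.0495).

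The balance of the 2 receptor chains followed from these levels. Per kilobase, Il6st was 1.24 ± 0.140 times Il6ra in CD4 WT, 1.12 ± 0.0703 times in CD4 Het and 1.11 ± 0.147 times in CD4 KO libraries (SD, n = 4). In CD8 cells it was 7.09 ± 1.97 times Il6ra in WT, 6.99 ± 3.17 in Het and 6.22 ± 1.67 in KO. The highest ratio of any CD4 library was 1.43 and the lowest of any CD8 library was 4.04. This ratio follows from the values above and was not tested again.

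**Figure D2:**
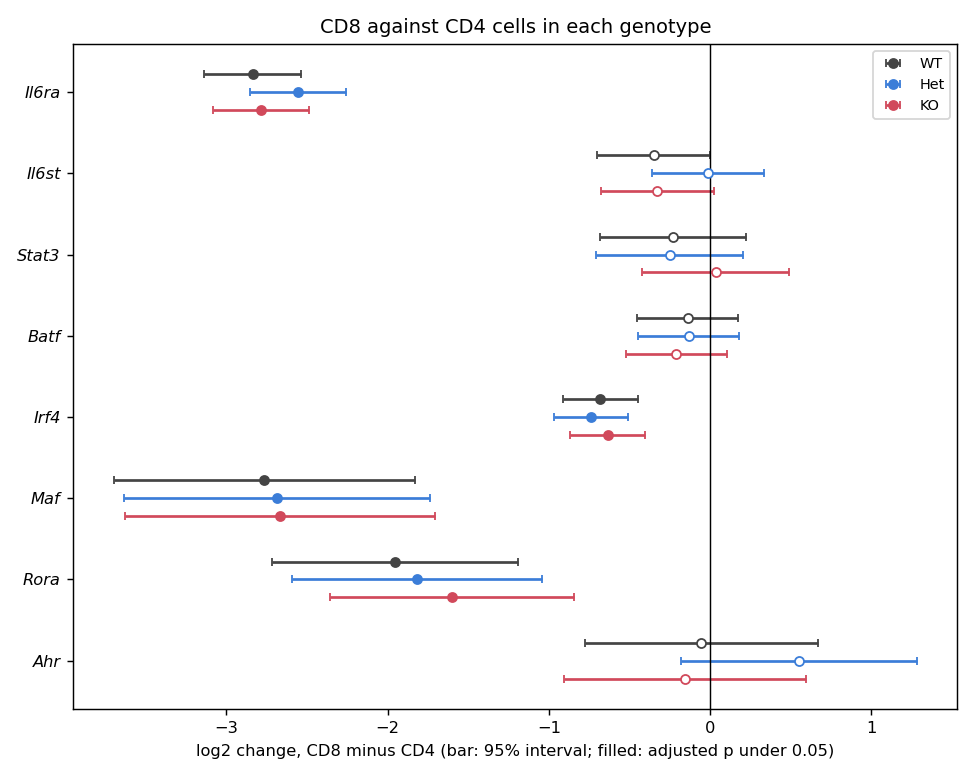
Log2 change of each gene between CD8 and CD4 cells (x axis, CD8 minus CD4) in WT, Het and KO. Points are edgeR estimates from the fit of 24 libraries, bars are 95% intervals, and filled points passed an adjusted p of 0.05. Il6ra, Irf4, Maf and Rora were filled and left of 0 in all 3 genotypes, and the intervals of the 3 genotypes overlapped for every gene.

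Stat3 (chr11:100885098-100939540, minus strand) encodes the factor that gp130 signalling activates. Its CD4 WT libraries held 561, 599, 416 and 474 CPM. Its CD8 WT libraries held 522, 439, 335 and 452 CPM. The groups overlapped, and no cell type comparison was called, with log2 changes of -0.23 in WT, -0.25 in Het and 0.04 in KO. The widest spread was in CD8 KO, where libraries 1 to 4 held 567, 751, 324 and 363 CPM. Stat5a lies on the opposite strand and overlaps Stat3, with up to 3474 counts in a library. Whether the counting used strand is not given in the sources used here, and reads in the shared stretch may be of either gene.

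Batf (chr12:85686669-85709087, plus strand) encodes an AP-1 family factor that binds together with IRF4. Its CD4 WT libraries held 28.1, 32.8, 27.6 and 25.2 CPM and its CD8 WT libraries 22.5, 23.0, 31.9 and 25.6 CPM. The groups overlapped, and the log2 change between cell types was -0.14 in WT, -0.13 in Het and -0.21 in KO, with no call. Among libraries numbered 1 and 2 alone Batf was lower in CD8 cells in WT (log2 -0.42, adjusted p = 0.01) and KO (log2 -0.51, adjusted p = 0.0045).

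Irf4 (chr13:30749226-30766976, plus strand) encodes the partner of BATF, whose level follows the strength of T cell receptor signalling. The CD4 WT libraries held 966, 883, 1038 and 916 CPM. The CD8 WT libraries held 531, 563, 647 and 632 CPM. No CD8 library reached the lowest CD4 library, and the same was true in Het (CD8 505 to 668, CD4 852 to 1041 CPM) and in KO (CD8 526 to 742, CD4 881 to 1122 CPM). Irf4 was 1.60-fold lower in CD8 cells in WT (log2 -0.68, SE 0.11, adjusted p = 7.24e-05), 1.67-fold lower in Het (log2 -0.74, adjusted p = 2.31e-05) and 1.55-fold lower in KO (log2 -0.64, adjusted p = 1.78e-04). It was the most abundant member per kilobase in both cell types, at 194 ± 13.8 CPM per kb in CD4 WT and 121 ± 11.3 in CD8 WT libraries. Of this pair of partners the Irf4 gap was called in every genotype and the Batf gap in none, and the difference between the gaps was not tested.

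Maf (chr8:115682942-115707794, minus strand) encodes c-MAF, which drives IL-10 and IL-21 in helper cells. Its transcripts were scarce: the CD4 WT libraries held 0.673, 0.494, 1.71 and 1.63 CPM. CD8 libraries of any genotype held 1 to 3 counts each, at or under the floor, and CD4 libraries 7 to 36 counts. In WT, 77 counts over 4 CD4 libraries stood against 9 over 4 CD8 libraries. The ratio, scaled for library size, was 7.35 (95% exact interval 3.68 to 16.7), and the interval covers counting error only. It was 6.78 (3.35 to 15.5) in Het, with 63 against 9 counts, and 6.66 (3.26 to 15.4) in KO, with 53 against 9. Maf passed the count filter of the fit of 24 libraries only through the CD4 libraries, where it is high, so a call could only be in that direction and supports nothing. The adjusted p was 7.10e-05 in WT, 9.22e-05 in Het and 1.70e-04 in KO. In libraries numbered 1 and 2 alone the WT difference was not called (log2 -1.55, adjusted p = 0.105), and the 2 CD4 WT libraries there were the lowest of their group.

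Rora (chr9:68653786-69388246, plus strand) encodes RORα, a nuclear receptor that acts in type 17 cells. The CD4 WT libraries held 47.7, 56.4, 26.7 and 28.1 CPM. The CD8 WT libraries held 7.10, 5.79, 7.79 and 20.1 CPM. The groups did not overlap, but within each the libraries differed: CD4 WT libraries 1 and 2 were the high ones, and CD8 WT library 4 stood apart from the other 3. Het CD4 libraries held 24.3 to 33.2 CPM and Het CD8 libraries 4.61 to 14.3 CPM. KO CD4 libraries held 23.1 to 49.0 CPM and KO CD8 libraries 8.08 to 12.8 CPM. Rora was 3.88-fold lower in CD8 cells in WT (log2 -1.95, adjusted p = 3.30e-04), 3.53-fold lower in Het (log2 -1.82, adjusted p = 6.56e-04) and 3.03-fold lower in KO (log2 -1.60, adjusted p = 0.00237). In libraries numbered 3 and 4 alone the call was lost in WT (log2 -0.99, adjusted p = 0.131) and KO (log2 -1.29, adjusted p = 0.0669), and in those numbered 1 and 2 alone the WT change was -3.01.

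Ahr (chr12:35497974-35535038, minus strand) encodes the aryl hydrocarbon receptor. It ran from 1.06 to 3.20 CPM in the 12 CD4 libraries and from 0.975 to 4.06 CPM in the 12 CD8 libraries. The cell types overlapped throughout, with log2 changes of -0.05 in WT, 0.55 in Het and -0.15 in KO and no call. In libraries numbered 1 and 2 alone the Het change was 1.05 (adjusted p = 0.013).

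Loss of Pou2af1 was followed by no called change in any of the 8 genes. In CD4 cells 0 of 8 members were called in KO against WT, with 0.0708% of all tested genes called, and 0 of 8 had ranges that did not overlap, with 1.55% of all genes. In CD8 cells 7 members were tested, since Maf fell under the count filter. Of these, 0 were called in KO against WT, with 0.0634% of all genes called, and 0 of 8 had ranges that did not overlap, with 2.05% of all genes. At an unadjusted p under 0.05 the count of members was 0 in both, and DESeq2 called 0 in both. The 95% intervals in CD4 KO against WT ran from -0.09 to 0.23 on the log2 scale for Il6ra, -0.27 to 0.07 for Il6st, -0.38 to 0.23 for Stat3, -0.36 to 0.06 for Batf and -0.17 to 0.22 for Irf4. They were wider for 3 members, -0.92 to 0.28 for Rora, -0.91 to 0.49 for Ahr and -1.05 to 0.69 for Maf. Rora differed much between libraries of a group, at 39.7 ± 14.7 CPM in CD4 WT and 31.9 ± 12.1 CPM in CD4 KO (SD, n = 4). In CD8 KO against WT they were narrowest for Irf4, -0.17 to 0.33, and ran from -0.27 to 0.52 for Il6ra and from -1.07 to 0.46 for Ahr. None of the Il6ra intervals reached the size of its gap between cell types.

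**Figure D3:**
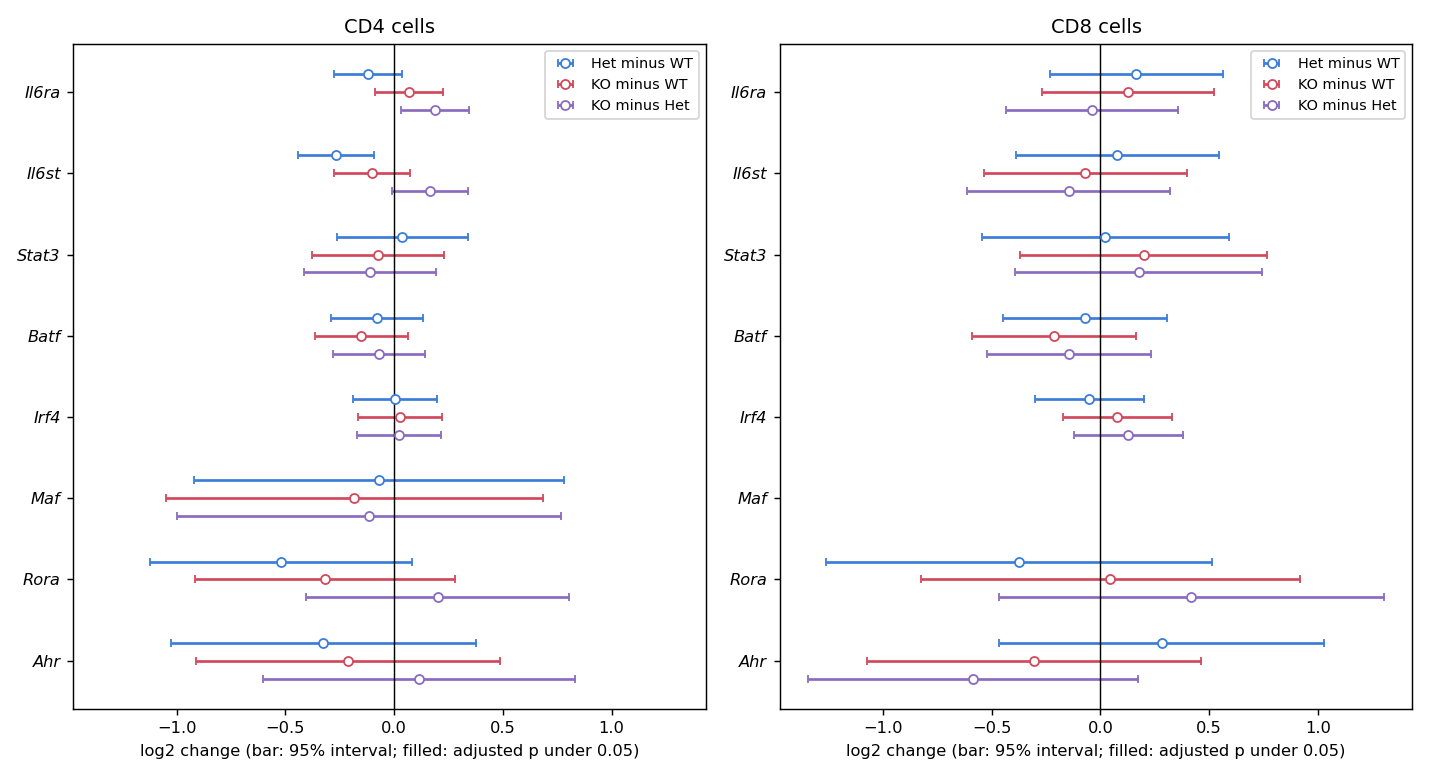
Log2 change of each gene between genotypes (x axis) in CD4 cells (left) and CD8 cells (right). Points are edgeR estimates from the fit of the 12 libraries of a cell type and bars are 95% intervals. No point is filled, since none passed an adjusted p of 0.05, and Maf has no point in CD8 cells because it was not tested there.

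In Het against WT 0 members were called in CD4 (0.0865% of all genes called) and 0 in CD8 (0.0634%). The CD4 comparison called 11 of all genes, and 45 with the replicate number as a block, with 0 members among them. Il6st was 131 ± 12.2 CPM in CD4 WT, with libraries at 136, 145, 117 and 126, and 109.5 ± 7.15 CPM in CD4 Het, with libraries at 118, 110, 101 and 109. The 2 groups overlapped at 1 library each, and the log2 change was -0.27 (95% interval -0.44 to -0.09, adjusted p = 0.386, and 0.0633 to 0.861 over the alternatives tried). It was the 1 member of 8 with an unadjusted p under 0.05 in this comparison, where 1104 of 12719 genes had one, a share close to that of the members. Il6ra was the 1 member of 8 whose ranges did not overlap there, with every CD4 Het library (73.2 to 78.2 CPM) under every CD4 WT library (79.1 to 86.6 CPM), where 6.43% of all genes did not overlap. Its log2 change was -0.12 (adjusted p = 0.682). In CD8 Het against WT 0 of 8 members did not overlap, with 1.53% of all genes, and 0 had an unadjusted p under 0.05.

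In KO against Het 0 members were called in CD4 (0.0157% of all genes called) and 0 in CD8 (0.0159%). Il6ra in CD4 cells was again the 1 member whose ranges did not overlap (2.81% of all genes) and the 1 with an unadjusted p under 0.05 (465 of 12719 genes had one), with a log2 change of 0.19 (adjusted p = 1.0). These comparisons share the Het libraries. In CD8 cells 0 members did not overlap, with 2.73% of all genes, and 0 had an unadjusted p under 0.05. DESeq2 called 0 members in these 4 comparisons as well.

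No difference in the effect of genotype between the cell types was called for any member. In the test of the KO effect in CD8 minus that in CD4 0 of 8 members were called, with 0.00753% of all genes called, and in the test of the Het effects 0 of 8 were called, also with 0.00753% of all genes. No member had an unadjusted p under 0.05 in either test, and DESeq2 called 0. For Il6ra the difference of KO effects was 0.05 on the log2 scale (95% interval -0.36 to 0.45), and for Irf4 it was 0.04 (-0.28 to 0.37). For Rora it was 0.36 with an interval of -0.70 to 1.41.

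Il6ra lies on the same chromosome as Tpm3, a tropomyosin gene that was lower in Cre carriers in these data. Tpm3 (chr3:90072649-90100902) averaged 263 ± 9.50 CPM in CD4 WT, 178 ± 15.0 in CD4 Het and 179 ± 6.38 in CD4 KO libraries, a log2 change of -0.56 in KO against WT (adjusted p = 0.00162). It starts 159 kb from Il6ra. Of the 16 genes annotated from Il6ra to Tpm3, 9 were tested in CD4 cells and Tpm3 was the only one called in KO against WT. Il6ra itself changed by 0.07 in that comparison.

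The levels of some members differed between replicate numbers in most groups. Libraries numbered 3 and 4 are compared here with those numbered 1 and 2 as a description, since the labels do not say what the numbers mark. Stat3 had a lower mean in numbers 3 and 4 in all 6 groups (ratio 0.522 to 0.962), and in 5 of them both libraries were below both others. Il6st was lower in both of those libraries in 5 of 6 groups, the exception being CD4 KO, with ratios from 0.630 to 1.10. Batf and Ahr had the opposite tendency, with a higher mean in numbers 3 and 4 in 5 of 6 groups each and ratios up to 1.58 and 2.36. Irf4 was higher in numbers 3 and 4 in all 3 CD8 groups and lower in CD4 Het and CD4 KO. Il6ra stayed within 0.835 to 1.43. Rora ran from 0.527 in CD4 WT to 2.16 in CD8 WT. Maf, with few counts, ran from 0.683 in CD8 WT to 2.86 in CD4 WT.

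**Figure D4:**
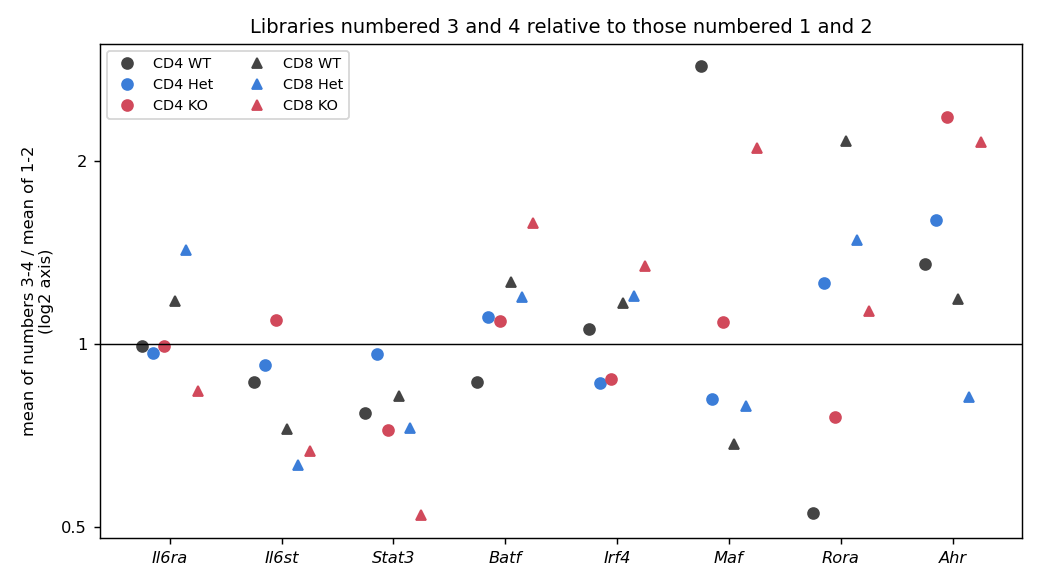
Ratio of the mean CPM of libraries numbered 3 and 4 to that of libraries numbered 1 and 2 (y axis, log2 scale) for each gene (x axis) in each of the 6 groups, circles for CD4 and triangles for CD8. Stat3 lies below 1 in all 6 groups and Il6st in 5, while Batf and Ahr lie above 1 in 5 groups each.

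After each library's group mean was removed, Il6st and Stat3 varied together over the 24 libraries (Pearson r = 0.714), and Batf with Ahr (0.563). Il6st and Irf4 varied in opposite ways (-0.813), as did Stat3 with Batf (-0.733). For Batf and Irf4, the DNA-binding partners, r was 0.925 over 12 CD8 libraries and -0.694 over 12 CD4 libraries. These libraries share replicate numbers and depth, and the mean of each pair of numbers was removed as well. Over 24 libraries r was then 0.364 for Il6st with Stat3, 0.643 for Batf with Ahr, -0.709 for Il6st with Irf4 and -0.55 for Stat3 with Batf. Both libraries of a pair then deviate by the same amount in opposite directions. Every r with the pair means removed, here and below, thus rests on 12 separate values and not on 24. For Batf with Irf4 it was -0.03, in place of 0.522 over the same 24 libraries. With only the group means removed, the genes most like Il6ra were Spred1 and Ndufc2 (r = 0.838 and 0.818). They were Scml4 and Slc28a2 for Il6st (0.950 and 0.947), and Hip1r and Ypel3 for Stat3 (0.958 and 0.952). For Batf they were Il2 and Smu1 (0.888 and 0.874), and for Irf4 Kmt5a and Timm8a1 (0.908 and 0.878). For Maf they were Nckap5l and Sgsh (0.806 and 0.794), and for Rora Pcgf5 and Rnf13 (0.811 and 0.786). For Ahr they were H2bc12 and Ttc21b (0.903 and 0.883). With the mean of each pair of numbers removed as well, these r ran from 0.575 (Sgsh with Maf) to 0.926 (Hip1r with Stat3). Only the r of the Rora genes rose, to 0.864 and 0.822, and the others fell.

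The other genes of these pathways were read from 6 lists. Between genotypes the lowest adjusted p of any listed gene was 0.386, for Lef1 in CD4 Het against WT. In the list of IL-6 family receptors and JAK-STAT signalling, 15 of 19 genes were tested. In CD8 against CD4 cells 2 were higher and 3 lower in WT, 2 and 4 in Het, and 2 and 3 in KO, beside the shares of all genes called in either direction given above. Jak2, a kinase that gp130 uses, was lower in CD8 cells, with log2 changes of -1.68 in WT, -1.67 in Het and -1.48 in KO. In WT it averaged 288 CPM in CD8 and 921 CPM in CD4 libraries (adjusted p = 2.24e-10). Ptpn11, encoding the phosphatase SHP2, was lower (log2 -0.42, -0.48 and -0.49), and Il27ra, the receptor chain that pairs with gp130 for IL-27, was higher (0.48, 0.75 and 0.59). Jak1, named after its values were seen, was the other gene higher in all 3 genotypes, with a log2 change of 0.24 in WT.

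In the type 17 list 11 of 16 genes were tested, and 1 was higher and 7 were lower in CD8 cells in each genotype. Of all tested genes 16.6% were called lower in WT, 17.8% in Het and 13.0% in KO. Runx1, a runt family transcription factor, averaged 12.3 CPM in CD8 WT and 49.2 CPM in CD4 WT libraries (adjusted p = 8.90e-14), and its log2 change was -2.13 in Het and -2.08 in KO. Il12rb1, a chain of the IL-23 receptor, averaged 51.5 CPM in CD8 WT and 105 CPM in CD4 WT libraries (log2 -1.03, adjusted p = 9.93e-06). Ikzf3, encoding the factor Aiolos, was the gene that was higher, at 150 CPM in CD8 WT and 27.4 CPM in CD4 WT libraries (log2 2.45, adjusted p = 4.77e-08). Ccr6, Hif1a and Nfkbiz, named after their values were seen, were also lower in all 3 genotypes. The median log2 change of the list was -0.79 in WT, -1.07 in Het and -0.71 in KO.

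**Figure D5:**
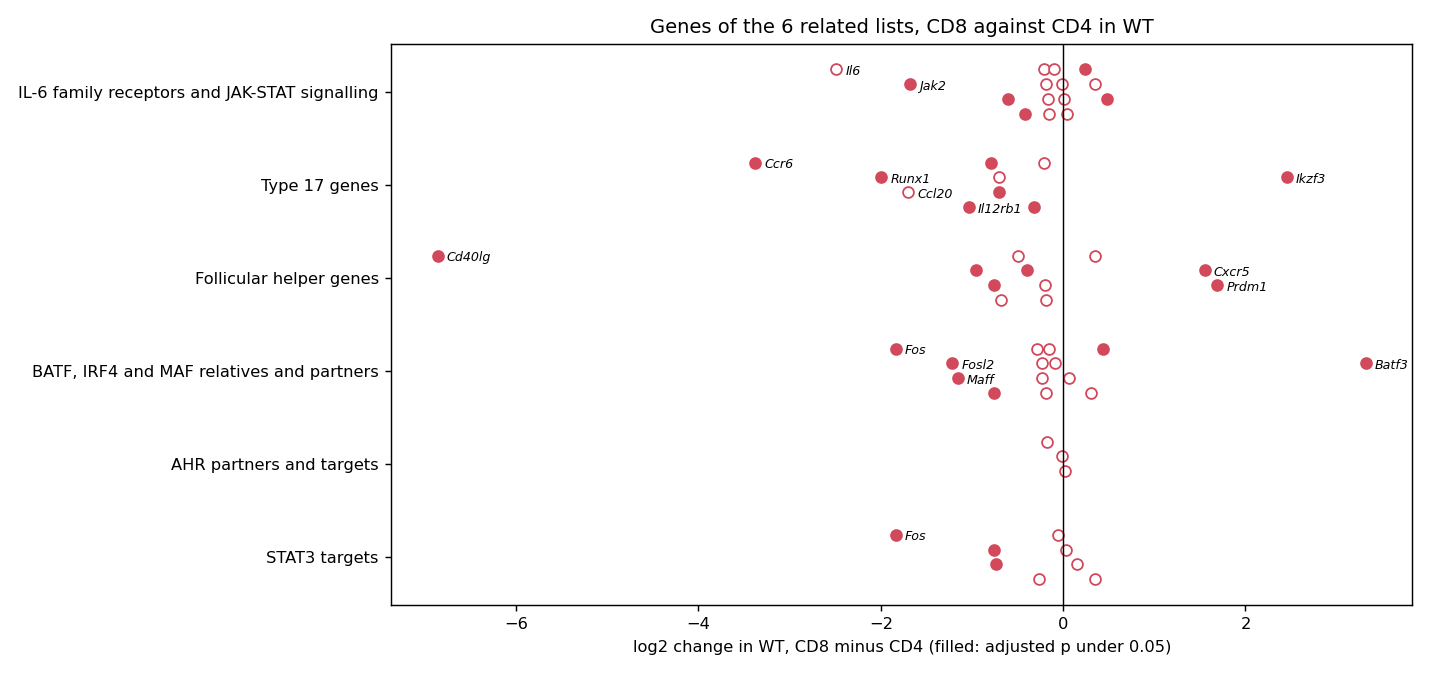
Log2 change between CD8 and CD4 cells in WT (x axis, CD8 minus CD4) for genes of the 6 lists (y axis), with 10 of the 11 tested type 17 genes and 3 of the 4 tested AHR genes drawn. Each point is 1 gene, points are offset up or down only to separate them, filled points passed an adjusted p of 0.05, and genes past 1 in either direction are named. In the type 17 list 6 filled points lie below 0 and 1, Ikzf3, above it.

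In the follicular helper list 11 of 15 genes were tested, with 2 higher and 4 lower in WT, 3 and 4 in Het, and 2 and 4 in KO. Of all tested genes 31.2% were called in either direction in WT, 34.9% in Het and 24.1% in KO, and the same shares stand beside the counts of the next lists. Cd40lg, the helper ligand also used as a CD4 lineage marker, was lower in CD8 cells (log2 -6.86 in WT), and Tox (-0.95) and Bach2 (-0.76) were lower. Cxcr5, the follicle homing receptor, was higher at 11.2 against 3.86 CPM in WT (log2 1.55, adjusted p = 1.38e-04). Prdm1, named after its values were seen, was the other gene of this list higher in all 3 genotypes. In the list of relatives and partners of BATF, IRF4 and MAF 14 of 16 genes were tested, with 2 higher and 4 lower in WT, 2 and 7 in Het, and 2 and 4 in KO. Junb, the AP-1 partner of BATF, was lower in CD8 cells (log2 -0.76, -0.96 and -0.58), as were Fos (-1.84, -2.52 and -1.39), Fosl2 (-1.22, -1.57 and -0.80) and the small MAF gene Maff (-1.15, -1.46 and -1.60). Batf3, a close relative of Batf, was higher (log2 3.32, 3.18 and 3.66), at 6.39 against 0.666 CPM in WT. It is 1 of the 2 counted as higher. Of this list 14 genes passed the count filter among CD8 libraries and 13 among CD4 libraries. Batf3 may have entered the test only through the CD8 libraries, where it is high. A call could then only be in that direction, so its values are a description. Jund, another JUN family gene and named after its values were seen, was also higher (log2 0.43, 0.57 and 0.41). Batf itself was not called, while Irf4 and Junb were lower in CD8 cells and Jund was higher.

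Of 9 AHR partners and targets 4 were tested, among them Arnt, the partner of AHR, with a log2 change between cell types of -0.15 in Het (adjusted p = 0.126), and Tiparp, a target, with -0.33 in KO (adjusted p = 0.503). All 8 listed STAT3 targets were tested, with 0 higher and 3 lower in WT, 0 and 4 in Het, and 1 and 3 in KO, so that 3 of 8 were called in WT beside 31.2% of all genes. Those lower in all 3 genotypes were Fos and Junb, which the previous list also holds, and Bcl2l1 (log2 -0.73, -0.71 and -0.75), which encodes the survival factor BCL-XL.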

How the data were processed

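The raw values were the whole-number gene counts the authors deposited for 24 libraries of poly(A) RNA. Per the submitters' processing notes, Trimmomatic 0.35, STAR 2.7.1a, DESeq2 1.26.0 and GRCm38 were used. For the annotation release and the use of strand nothing is given in the sources used here. The 4 summary lines of unassigned reads, 31.6% to 35.0% of entries, were left out, and multimapping reads (17.5% to 18.5%) were counted for no gene. The deposited normalized signal, the counts divided by 1 factor per library, gave ratios within 0.9973 to 1.003 of those used here.

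Counts were filtered (filterByExpr, count of 10), TMM-scaled and tested in edgeR 4.0.16 (R 4.3.3). Genotypes were compared among the 12 libraries of a cell type (12719 genes in CD4, 12612 in CD8), and cell types over all 24 (13288 genes). DESeq2 1.42.0 was an alternative, and the test was run on simulated data first. Identifiers and coordinates of 54349 of 55401 genes matched GENCODE M21, which gave exon lengths. All 36 pairs of libraries within a group differed by more than sampling noise (chi-square over its degrees of freedom at least 2.78).

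Same-numbered libraries deviated together between CD8 and CD4 cells of a genotype (r = 0.147 to 0.451) and between CD4 groups (0.132 to 0.580). Between CD8 groups r was 0.0565 to 0.395 for KO with WT and 0.0678 to 0.403 for KO with Het. For CD8 Het with WT it ran from -0.226 to 0.223. Libraries of unlike number were not compared, so pairing by number was not tested. The reported fits have no block, and the fit with the number as a block was an alternative, given where it changed a call. The members and lists were chosen with earlier results of these data known. Named genes are all members, Pou2af1, Tpm3, up to 3 called genes of lowest p per list and comparison (or the 1 of lowest p), and the 2 genes most correlated with each member. A gene of the type 17 list and a gene of the AHR list are not reported here by name.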

Additional observations from a re-analysis of the deposited data

Results flagged for a closer look

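Rora in CD8 WT library 4 was 20.1 CPM, against 5.79 to 7.79 CPM in the other 3 CD8 WT libraries, so that the gap to its nearest neighbour was 0.86 of the range of the group. Over the 8 genes and 6 groups 48 such groups were examined. This was the 1 flagged, and the share that chance alone would flag was not tested. Of other genes read in the 4 CD8 WT libraries, Ccr6 was 16.6, 12.2, 5.11 and 4.55 CPM in libraries 1 to 4. Library 3 was thus nearly as low in Ccr6 as library 4. Il12rb1 was highest in library 4 (56.5 CPM, 46.9 to 53.1 in the others). Cd4 (0.413 CPM) and Zbtb7b (5.37 CPM) in library 4 lay within the range of the others. Without library 4 the log2 change of Rora between CD8 and CD4 WT cells was -2.52 (adjusted p = 2.02e-05) in place of -1.95.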

How the results depend on the processing

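The count of called members was 0 in each genotype comparison and each difference of effects under every alternative run. In each cell type comparison it was 4, also with RLE factors, without the filter, in DESeq2, with a block within genotype (chosen after seeing the data) and without any 1 library, and 4 to 6 under the others. Of 1427 member values recomputed (85 member results), 1260 kept direction and side of the threshold, 152 uncalled values changed sign, 11 became called, 3 lost the call, and 1 reversed: Il6st in Het, CD8 against CD4, was 0.22 and called in libraries numbered 1 and 2 alone. The 3 lost calls were those of Maf (numbers 1 and 2, WT) and Rora (numbers 3 and 4, WT and KO). With the replicate block Il6st became called in WT (-0.36) and KO (-0.36), and no other member call changed. Il6st was also called in WT and KO with the number sets as a covariate. In all it was called in 4 of 16 alternatives in WT and 3 of 16 in KO. Counts over all genes moved more. CD4 Het against WT called 11 genes, 45 with the replicate block, 79 with the number sets as a covariate, 251 in numbers 1 and 2, 56 in numbers 3 and 4, 80 in DESeq2, and 7 to 9 without 1 library (fewest without CD4 WT library 3 or CD4 Het library 1). CD8 KO against Het called 2, 242 in numbers 1 and 2, 1 in numbers 3 and 4, 19 in DESeq2 and 2 to 4 without 1 library (most without CD8 Het library 3). CD8 KO against WT called 8, and 5 in either set of numbers. CD4 KO against Het called 2 and 13, and CD8 Het against WT 8 and 4, in numbers 3 and 4. Each difference of effects called 1 gene, and 0 in either set of numbers. Within a set of numbers each group holds 2 libraries. The cause of the other shifts was not tested. Depth limits Maf, at 1 to 3 counts in every CD8 library, and Ahr.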
